A study of Mus musculus with 4 samples.

Results

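Oasl2, Trim30a, Zbp1 and Xaf1 are genes induced by interferon, and 5 unannotated transcripts of these 4 genes were followed through granulocyte-monocyte progenitors of MST1-deficient and wild-type mice. The members were all transcripts listed under the NCBI gene numbers of the 4 genes, out of 8219 transcripts listed in any library. The genes themselves had been picked because their summed unannotated transcripts stood out, or were the exception, in the same contrast of genotypes, so their differences between the groups are given as a description without a test. An unannotated transcript is one that the authors' assembly placed outside the reference annotation. Annotated transcripts of the 4 genes are not analysed here, and each value covers only the unannotated part of a gene's output.

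The MST1-deficient and the wild-type group each held 2 libraries, and each library was made from progenitors sorted from the bone marrow of 10 pooled mice. The sorted cells were kept in medium with 10% serum and received no drug, per the labels. MST1 was taken to be the Hippo pathway kinase encoded by Stk4, which the labels do not name. They also give no allele, strain, promoter, age or sex. No unannotated transcript of Stk4 was listed, so the genotype rests on the labels. The pools of a group carry separate labels, but separate preparation is not stated, so the spread between them may be partly technical.

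Interferons bind cell surface receptors whose Janus kinases activate STAT proteins. These proteins then bind interferon-stimulated response elements in promoters, together with IRF9, and switch on antiviral genes. Blood-forming cells are known to hold such genes at a low basal level. Oasl2 encodes a relative of the oligoadenylate synthetases that carries ubiquitin-like repeats. Trim30a encodes a RING-type tripartite motif protein that restrains Toll-like receptor signalling in mouse macrophages. Zbp1 encodes a sensor of nucleic acids in the left-handed Z form that can start necroptosis through Ripk3. Xaf1 encodes a zinc finger protein that binds XIAP, an inhibitor of caspases.

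The promoters are printed because interferon acts on these genes through short motifs near the start site. RefSeq windows of 300 bases (250 before and 50 after the start) were matched for Oasl2, Trim30a and Xaf1, and not for Zbp1. Capitals mark GAAANNGAAA, the core of the interferon-stimulated response element, and GAAANGAAA, its form with a shorter spacer, on either strand.
Oasl2, GRCm38.p6 chr5:114896684-114896983, plus strand: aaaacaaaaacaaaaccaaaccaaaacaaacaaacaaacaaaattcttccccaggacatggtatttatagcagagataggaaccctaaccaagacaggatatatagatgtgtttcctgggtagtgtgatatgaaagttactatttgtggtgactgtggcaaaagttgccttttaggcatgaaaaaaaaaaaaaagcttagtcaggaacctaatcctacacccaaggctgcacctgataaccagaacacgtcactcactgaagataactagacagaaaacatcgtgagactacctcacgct
Trim30a, GRCm38.p6 chr7:104465144-104465443, minus strand: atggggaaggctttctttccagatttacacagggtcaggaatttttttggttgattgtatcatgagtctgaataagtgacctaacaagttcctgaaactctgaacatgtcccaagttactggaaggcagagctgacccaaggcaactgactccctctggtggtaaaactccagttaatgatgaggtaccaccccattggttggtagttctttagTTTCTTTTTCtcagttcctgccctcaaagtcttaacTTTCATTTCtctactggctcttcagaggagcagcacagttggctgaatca
Xaf1, GRCm38.p6 chr11:72301379-72301678, plus strand: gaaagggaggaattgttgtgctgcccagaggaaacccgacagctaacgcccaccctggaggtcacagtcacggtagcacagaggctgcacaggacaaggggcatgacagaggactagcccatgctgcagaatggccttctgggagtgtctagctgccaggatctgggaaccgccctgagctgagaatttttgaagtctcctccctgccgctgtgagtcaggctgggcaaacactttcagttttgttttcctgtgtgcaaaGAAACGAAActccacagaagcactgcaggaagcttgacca

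The Trim30a window held GAAANNGAAA on the reverse strand at bases 215 to 224 and GAAANGAAA on the reverse strand at bases 251 to 259, counted from the first base printed. A second RefSeq start of Trim30a, with a window from 104446076 to 104446375 on chromosome 7, held the same pair of motifs. The Xaf1 window held GAAANGAAA on the forward strand at bases 261 to 269. Neither motif was in the Oasl2 window, and TTCNNNGAA, the core of the gamma-activated site, was in none of these windows. The 2 marked motifs can overlap in principle but did not here. Of 32851 promoter windows, 3.44% held GAAANNGAAA, 3.17% held GAAANGAAA and 8.3% held TTCNNNGAA. These matches describe letters in a window and were not tied to any measurement of binding.

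**Figure D1:**
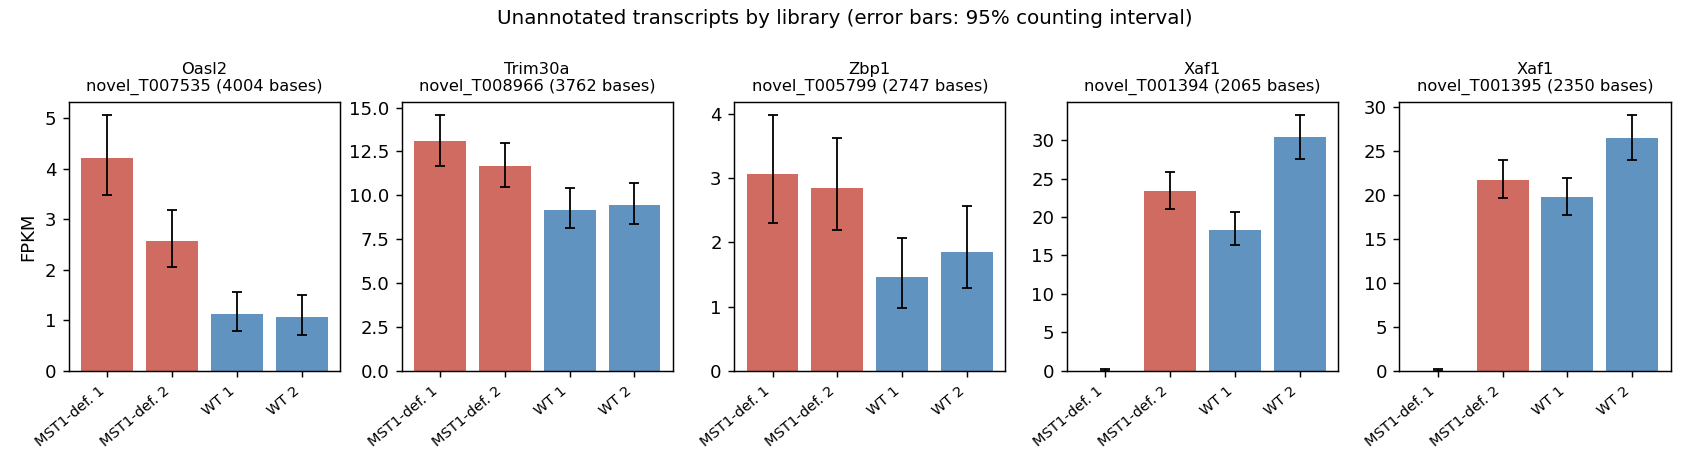
FPKM of each unannotated transcript in the 4 libraries, MST1-deficient libraries in red and wild-type (WT) libraries in blue, with exact Poisson 95% intervals that cover counting error only. Oasl2, Trim30a and Zbp1 had both MST1-deficient bars above both wild-type bars, while both Xaf1 transcripts were missing from the list of MST1-deficient replicate 1, drawn as 0, and at 21.66 FPKM or more in MST1-deficient replicate 2.

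Oasl2 (gene 23962, chromosome 5, 114896926 to 114912245 on mm10) had 1 listed transcript, novel_T007535, of 4004 bases. It had 4.21 and 2.57 FPKM in MST1-deficient replicates 1 and 2, against 1.12 and 1.06 FPKM in wild-type replicates 1 and 2. FPKM is the estimated number of reads of a transcript scaled to its length and to the library's total reads. The lower MST1-deficient library exceeded the higher wild-type one, and the MST1-deficient libraries were further from each other than the wild-type libraries were. The means were 3.39 ± 1.16 FPKM (SD, n = 2) in MST1-deficient and 1.09 ± 0.0424 FPKM in wild-type libraries, a 3.11-fold ratio. In estimated counts these were 112.57 and 85.04 in MST1-deficient libraries against 34.59 and 30.3 in wild-type libraries. The 95% counting intervals did not meet: the lowest MST1-deficient bound was 2.06 FPKM and the highest wild-type bound 1.56 FPKM. Such intervals, here and below, leave out the spread between pools and are no test between the groups. In bulk RNA, a change in the number of cells that express a gene and a change in RNA per cell cannot be told apart.

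Trim30a (gene 20128, chromosome 7, 104409025 to 104465193) had 1 listed transcript, novel_T008966, of 3762 bases. It had 13.1 and 11.7 FPKM in MST1-deficient libraries, against 9.19 and 9.47 FPKM in wild-type libraries. The groups did not overlap, and the distance between them was small beside that of Oasl2. The means were 12.4 ± 0.99 FPKM (SD, n = 2) in MST1-deficient and 9.33 ± 0.198 FPKM in wild-type libraries, a 1.33-fold ratio. The lowest MST1-deficient counting bound was 10.5 FPKM, under the highest wild-type bound of 10.7 FPKM, so the intervals of MST1-deficient replicate 2 and wild-type replicate 2 met.

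Zbp1 (gene 58203, chromosome 2, 173206612 to 173218959) also had 1 listed transcript, novel_T005799, of 2747 bases. It had 3.07 and 2.84 FPKM in MST1-deficient libraries, against 1.46 and 1.85 FPKM in wild-type libraries. Here the MST1-deficient libraries lay close together and above both wild-type ones. The means were 2.96 ± 0.163 FPKM (SD, n = 2) in MST1-deficient and 1.66 ± 0.276 FPKM in wild-type libraries, a 1.79-fold ratio. These values rest on few reads, with 55.31 and 63.46 estimated counts in MST1-deficient and 30.3 and 35.79 in wild-type libraries. The counting intervals of MST1-deficient replicates 1 and 2 began at 2.31 and 2.19 FPKM. That of wild-type replicate 2 ended at 2.56 FPKM and so met both, while that of wild-type replicate 1 ended at 2.07 FPKM.

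Xaf1 (gene 327959, chromosome 11, 72301461 to 72313733) had 2 listed transcripts, and both were absent from 1 library. The form of 2065 bases, novel_T001394, was missing from the list of MST1-deficient replicate 1, taken as 0, and had 23.34 FPKM in MST1-deficient replicate 2, against 18.34 and 30.33 FPKM in wild-type libraries. The form of 2350 bases, novel_T001395, was likewise missing from MST1-deficient replicate 1 and had 21.66 FPKM in MST1-deficient replicate 2, against 19.71 and 26.48 FPKM in wild-type libraries. For both forms MST1-deficient replicate 2 lay between the wild-type libraries, so the low mean of the group came from replicate 1. Summed, Xaf1 had 0 and 45.0 FPKM in MST1-deficient libraries against 38.05 and 56.81 FPKM in wild-type libraries. A floor of 3 counts in MST1-deficient replicate 1 equals 0.225 FPKM for the shorter and 0.196 FPKM for the longer form. The exact Poisson intervals of a count of 0 there reached higher, to 0.277 and 0.241 FPKM. With MST1-deficient replicate 1 set to this floor and scaled to library totals, the shorter form was 104-fold lower there than in MST1-deficient replicate 2. Against wild-type replicate 1 the shorter form was 81.4-fold lower. For the longer form the ratio against MST1-deficient replicate 2 was 111-fold. These ratios leave out the counting error of the other library and are no lower bounds. Whether reads of Xaf1 were assigned to its annotated transcripts in MST1-deficient replicate 1 was not tested.

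The balance of the 2 Xaf1 forms was nearly even wherever they were listed. The form of 2065 bases made up 51.9% of the summed FPKM in MST1-deficient replicate 2, against 48.2% and 53.4% in wild-type replicates 1 and 2. Their lengths differ by 285 bases, and their estimated counts can trade reads over any shared exon.

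Absence of abundant transcripts from the list of 1 library, counted as 0, was rare. Of 798 transcripts with at least 200 counts in each of the other libraries, 9 (1.13%) were at 0 in MST1-deficient replicate 1, and 2 of the 9 were the Xaf1 forms. The matching counts were 5 of 768 for MST1-deficient replicate 2, 2 of 733 for wild-type replicate 1 and 3 of 767 for wild-type replicate 2. Among gene sums with at least 2 listed transcripts, Xaf1 was the 1 such gene of 495 at 0 in MST1-deficient replicate 1. Aff1 was the 1 such gene of 495 at 0 in wild-type replicate 2, and the other libraries had 0 of 507 and 0 of 477. Both names were chosen after their values were seen.

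Fold changes fitted on the whole table gave the same order. With edgeR on estimated counts the log2 fold change of the gene sum, MST1-deficient over wild-type, was 1.67 for Oasl2 (SE 0.40), 0.88 for Zbp1 (SE 0.49) and 0.46 for Trim30a (SE 0.23). For Xaf1 it was -0.87 with an SE of 1.95, and 0.13 (SE 0.37) without MST1-deficient replicate 1, which turned its direction. The median over all 3221 gene sums was 0.013. The fold change of Oasl2 lay above that of 97.5% of the gene sums tested, Zbp1 above 92.5%, Trim30a above 82.0% and Xaf1 above 8.63%.

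All 5 transcripts passed the filter on low values, FPKM values reaching 1 in no fewer than 2 libraries, and the transcripts of Oasl2, Trim30a and Zbp1 did so in all 4. Of the 4 genes, 3 had no overlap between the groups and higher FPKM in MST1-deficient libraries, a pattern of 14.1% of the 3221 gene sums and 13.7% of the 4661 transcripts. Since the genes were picked on this contrast, nothing is read from that count. No feature passed the edgeR threshold (adjusted p of 0.05): 0 of 4661 transcripts and 0 of 3221 gene sums were called (0%), with 245 and 182 at an unadjusted p under 0.05. DESeq2 called 103 transcripts (2.21%) and 46 gene sums (1.43%), and limma on log2(FPKM + 0.5) called 5 of each (0.107% and 0.155%). None of the 4 genes or their transcripts was among the calls of these tools.

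**Figure D2:**
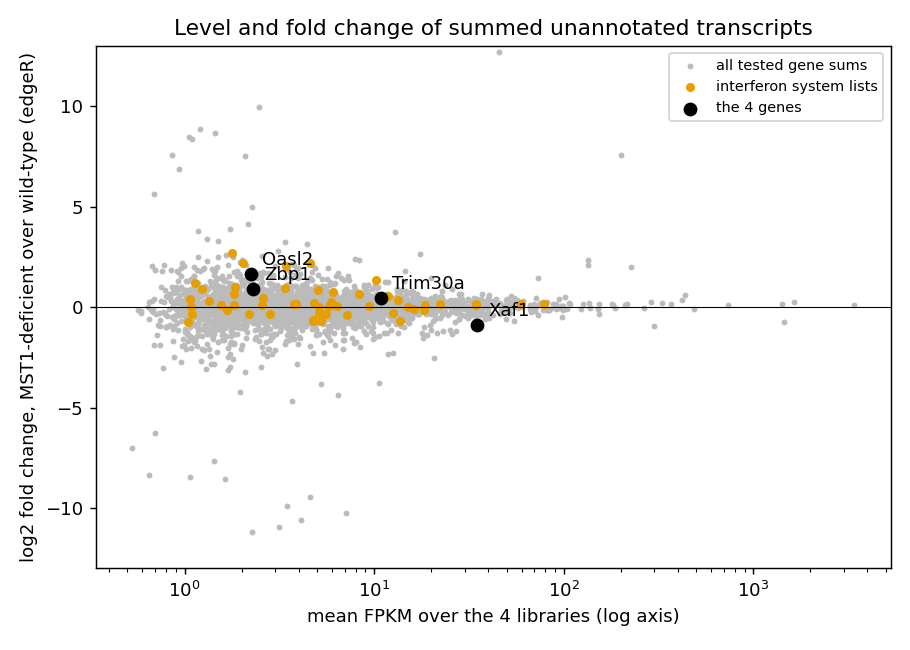
Mean FPKM over the 4 libraries (horizontal, log axis) against the edgeR log2 fold change, MST1-deficient over wild-type (vertical), for 3221 gene sums in grey, 52 tested genes of the interferon system in orange and the 4 genes in black. Oasl2 at 1.67 and Zbp1 at 0.88 lie at low levels, Trim30a at 0.46 is more abundant, and Xaf1 lies at -0.87.

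Per length, the genes differed widely in level. In MST1-deficient replicate 2 and in both wild-type libraries the summed Xaf1 transcripts had the highest FPKM, followed by Trim30a. Oasl2 (2.57 to 4.21 FPKM) and Zbp1 (2.84 to 3.07 FPKM) overlapped in MST1-deficient libraries, while in wild-type libraries Zbp1 (1.46 to 1.85 FPKM) was above Oasl2 (1.06 to 1.12 FPKM). The ratio of Oasl2 to Zbp1 was 1.37 and 0.905 in MST1-deficient libraries, against 0.767 and 0.573 in wild-type libraries. The ratio of Zbp1 to Trim30a was steadier, at 0.234 and 0.243 in MST1-deficient libraries against 0.159 and 0.195 in wild-type libraries. By mean FPKM over the libraries, the Oasl2 transcript exceeded 39.2% of tested transcripts, Zbp1 40.5%, Trim30a 85.9%, and the Xaf1 forms 92.0% and 91.6%.

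Within the MST1-deficient group the replicates lay closer together for Trim30a and Zbp1 than for Oasl2. MST1-deficient replicate 1 was higher than replicate 2 by 1.64 times for Oasl2, 1.12 times for Trim30a and 1.08 times for Zbp1. On the log2(FPKM + 0.5) scale these gaps were 0.62, 0.16 and 0.096, beside a median gap of 0.587 between the same libraries over all tested transcripts. Between the wild-type libraries the ratio of replicate 1 to replicate 2 was 1.06 for Oasl2, 0.97 for Trim30a and 0.789 for Zbp1. For the Xaf1 forms it was 0.605 (2065 bases) and 0.744 (2350 bases). The library order was therefore the same in Trim30a and Zbp1, with MST1-deficient replicate 1 highest and wild-type replicate 1 lowest, and Oasl2 differed from it in the order of the wild-type libraries alone.

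Likeness of profiles was measured as the Euclidean distance between log2(FPKM + 0.5) values centred on each gene's mean over the 4 libraries. Trim30a and Zbp1 were 0.337 apart, Oasl2 and Zbp1 0.716, and Oasl2 and Trim30a 0.93, while Xaf1 was 6.0 to 6.81 from the others. The 3 nearest of the 3221 gene sums were Fmnl3, Zfp970 and Gm14440 for Oasl2 (0.128 to 0.143), Dhx38, Trmt1 and 9930104L06Rik for Trim30a (0.0551 to 0.0665), and Frmd6, Zfp553 and Rif1 for Zbp1 (0.07 to 0.117). For Xaf1 they were Plekho1, Vrk2 and Etnk1 (1.7 to 2.08), which were at 0, 0.06 and 0 FPKM in MST1-deficient replicate 1. Within the interferon system the nearest gene was Parp9 for both Oasl2 (0.597) and Zbp1 (0.211), Nlrc5 for Trim30a (0.238) and Irf4 for Xaf1 (4.45). With 4 libraries, distances of this kind describe shape and carry no test.

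None of the 5 transcripts had the length of an annotated one in GENCODE M21, an annotation of the same build. The Oasl2 transcript was 881 bases longer than the longest of 9 annotated Oasl2 transcripts, a coding one of 3123 bases. The Trim30a transcript of 3762 bases was close to the annotated coding transcript of 3771 bases and 8 exons. At 2747 bases, the Zbp1 transcript lay between the longest coding transcript (1989 bases) and an annotated transcript with a retained intron (3325 bases). Both Xaf1 forms were shorter than the longest coding transcript (2597 bases, 6 exons). Length alone does not give the exon structure, and neither the exons nor the sequences of the unannotated transcripts were analysed here.

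Trim30a lies in a cluster of related Trim genes on chromosome 7, and the 7 relatives with listed transcripts were all on that chromosome. Trim30b had 1.59 and 7.7 FPKM in MST1-deficient libraries against 2.58 and 1.61 FPKM in wild-type libraries. Trim12a had 3.09 and 10.78 FPKM in MST1-deficient libraries against 2.26 and 2.14 FPKM in wild-type libraries. Thus 4 neighbours of Trim30a (Trim30b, Trim12a, Trim34a and Trim5) were highest in MST1-deficient replicate 2, unlike Trim30a itself. Trim34a had 2.66 and 8.17 FPKM in MST1-deficient libraries against 1.13 and 1.78 FPKM in wild-type libraries. Its copy Trim34b ran the other way, with 7.84 and 0.47 FPKM in MST1-deficient libraries against 5.57 and 7.22 FPKM in wild-type libraries. Of the 7 relatives, 3 (42.9%: Trim12a, Trim34a and Trim5) did not overlap between groups and were higher in MST1-deficient libraries, beside 14.1% of all gene sums. Trim30b and Trim5 were named after their values were seen. Of the 7 relatives 0 passed edgeR, with 1 at an unadjusted p under 0.05, beside 182 of all 3221 gene sums. The relatives are paralogues with similar sequences, so the split of reads among them, Trim30a included, is uncertain.

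**Figure D3:**
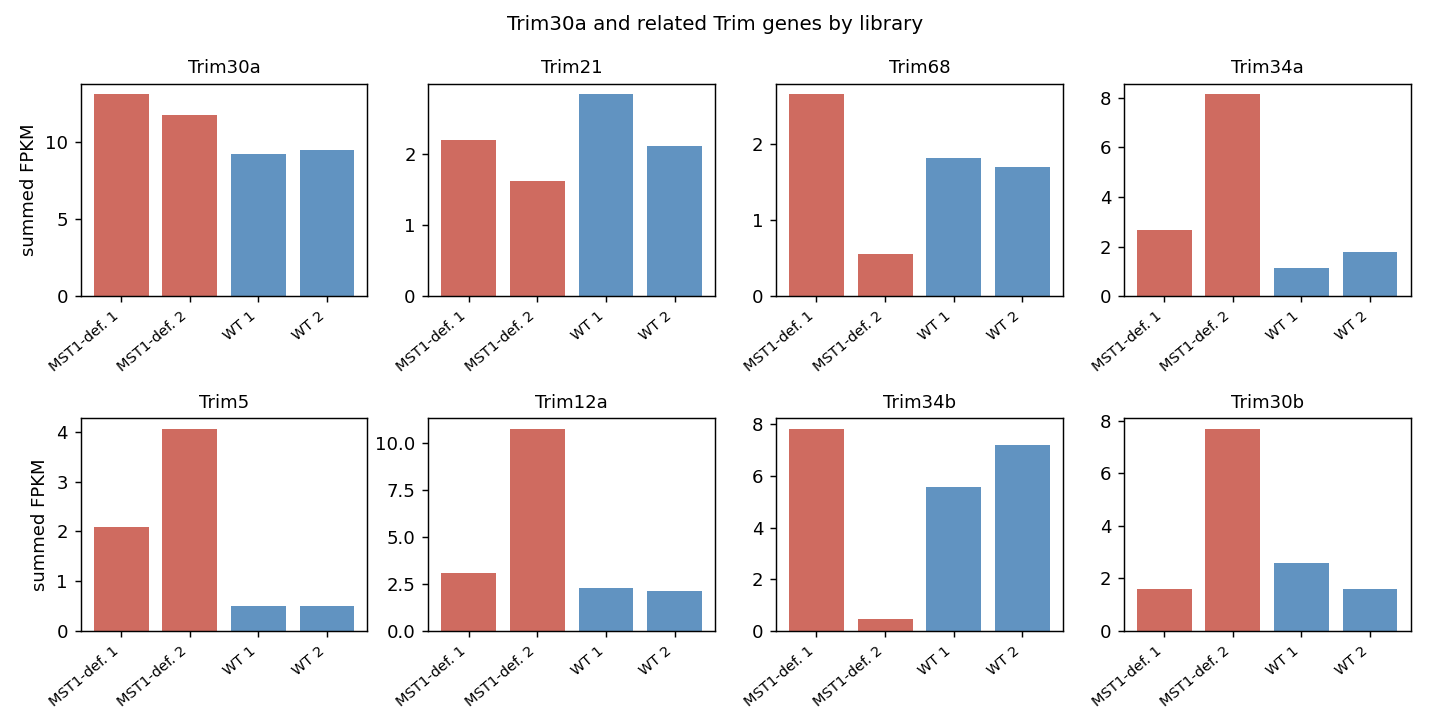
Summed FPKM of unannotated transcripts of Trim30a and its 7 relatives in the 4 libraries, MST1-deficient in red and wild-type in blue, each panel with its own axis from 0. Trim30a stays between 9.19 and 13.1 FPKM in all libraries. MST1-deficient replicate 2 was the highest library for Trim30b, Trim12a, Trim34a and Trim5, and the lowest for Trim34b (0.47 FPKM).

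The rest of the interferon system was followed through 212 genes in lists by role, of which 69 had a listed transcript and 52 were tested. None passed edgeR. Over all 3221 gene sums, 182 had an unadjusted p under 0.05, 97 of them higher. Of the 52 genes 4 did, all higher in MST1-deficient libraries. DESeq2 called 1, Slfn8 of the Schlafen family, named after its values were seen (adjusted p = 0.0248), with 20.26 and 11.02 FPKM in MST1-deficient against 6.18 and 3.46 FPKM in wild-type libraries. Groups did not overlap and MST1-deficient values were the higher for 17.3% of the 52 genes, beside 14.1% of all gene sums, and the lower for 9.62%, beside 18.8%. The median log2 fold change of the 52 genes was 0.13. It ranged over 0.051, 0.30, 0.053 and 0.23 without MST1-deficient replicate 1, MST1-deficient replicate 2, wild-type replicate 1 and wild-type replicate 2 in turn.

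Upstream of the 4 genes, none of 19 interferon genes had a listed transcript. Ifnar2, a chain of the type I interferon receptor, was the 1 tested receptor gene, with 3.6 and 3.62 FPKM in MST1-deficient against 6.99 and 4.9 FPKM in wild-type libraries. The transcriptional coactivators Ep300 and Crebbp had log2 fold changes of -0.29 and -0.33. The inhibitors tested, Foxo3 and Ptpn11, stood at 0.036 and 0.02. Of the sensors, Dhx58 had -0.71 and the adaptor Traf3 1.02. Dhx58 had 5.5 and 1.8 FPKM in MST1-deficient against 5.98 and 5.81 FPKM in wild-type libraries, so its gap came mostly from MST1-deficient replicate 2. Traf3 had 3.29 and 1.69 FPKM in MST1-deficient against 0.67 and 1.76 FPKM in wild-type libraries, with overlapping groups.

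Among 24 tested effectors of the interferon response, 19 had a positive log2 fold change, beside 51.1% of all gene sums. The summed FPKM of the 31 listed effectors was 418 and 315 in MST1-deficient against 315 and 338 in wild-type libraries. By that sum the groups overlapped, and MST1-deficient replicate 1 alone stood out. Higher values without overlap between the groups were found for 5 (20.8%), beside 14.1% of all gene sums, and lower values without overlap for 0, beside 18.8%. The median was 0.16. The 5 higher without overlap, named after their values were seen, were Mx2, Adar, Parp9, Nlrc5 and Slfn8. Sp100 and Sp110, of nuclear bodies, were abundant effectors with log2 fold changes of 0.16 each and overlapping groups. The list gave 3 genes at an unadjusted p under 0.05 with edgeR, all higher, beside 182 of all 3221 gene sums (97 higher). After adjustment the list gave 0. No unannotated transcript of Ifit1, Isg15 or Rsad2 was listed. Of the family of Oasl2, 5 genes were tested and 1 was higher without overlap between groups, beside 14.1% of all gene sums. That gene, Oas1g, had 7.38 and 7.64 FPKM in MST1-deficient against 3.33 and 5.94 FPKM in wild-type libraries. Oas2, another synthetase, had 17.49 and 10.85 FPKM in MST1-deficient against 6.52 and 12.29 FPKM in wild-type libraries.

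Partners of Zbp1 and Xaf1 in cell death were listed in part. Of 4 tested partners of Zbp1, Adar, an RNA editing enzyme, had 3.2 and 3.42 FPKM in MST1-deficient against 0 and 1.48 FPKM in wild-type libraries. Gsdmd, the pore-forming gasdermin, had 13.17 and 7.3 FPKM in MST1-deficient against 20.04 and 14.32 FPKM in wild-type libraries. Cflar, an inhibitor of caspase-8, had a log2 fold change of -0.30, and the list's median was -0.088. Of 6 tested partners of Xaf1 none separated the groups, beside 14.1% of all gene sums higher and 18.8% lower without overlap. Log2 fold changes were -0.14 for Birc3, 0.099 for Htra2 and 0.67 for Birc2, and the list's median was 0.20. Xiap did not pass the filter on low values, with 3.15 and 0.55 FPKM in MST1-deficient against 0.61 and 0.56 FPKM in wild-type libraries. Neither list had a gene at an unadjusted p under 0.05 with edgeR, beside 182 of all 3221 gene sums.

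**Figure D4:**
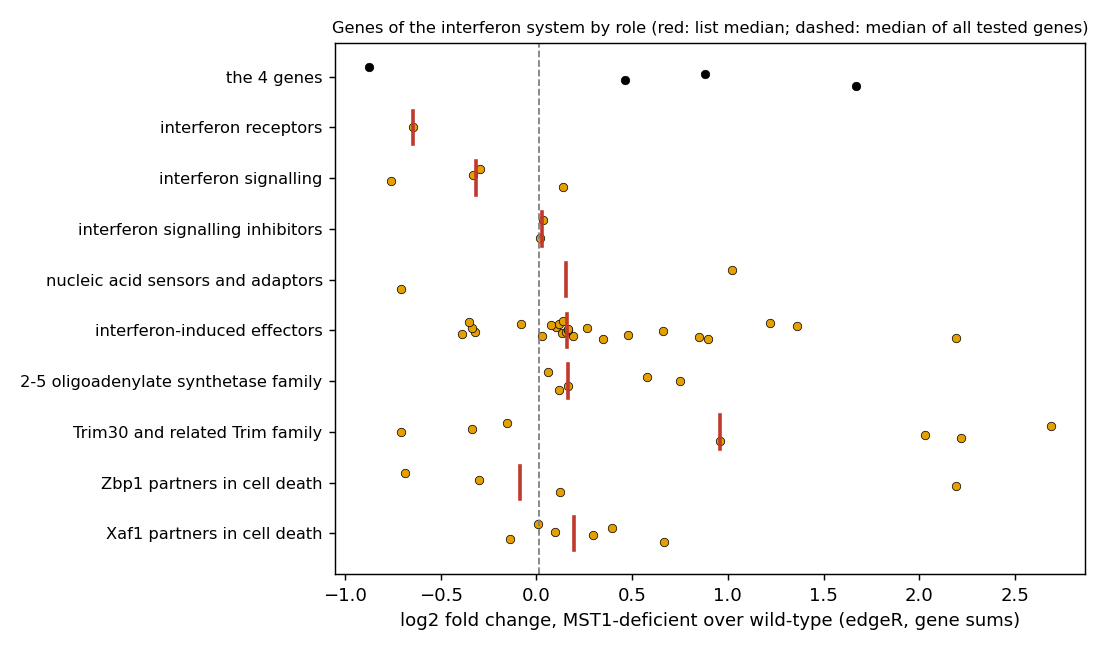
EdgeR log2 fold changes, MST1-deficient over wild-type, for the 4 genes (black) and the tested genes of each list (orange), with the list median in red and the median of all gene sums dashed. The 24 effectors centre on 0.16 and the 7 Trim relatives spread widely around 0.96.

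Implied library totals overlapped between the groups and ran from 6913542 to 8518288 reads, and 6517 to 6774 transcripts were listed per library. Of 16 markers of granulocyte-monocyte progenitors, Gfi1 and Kit had listed transcripts and the others, Mpo and Elane among them, had none, so the cell type could hardly be checked. Summed FPKM of 10 eosinophil, basophil and mast cell markers (5 listed) was 114 and 127 in MST1-deficient against 152 and 191 in wild-type libraries. For 11 erythroid markers (3 listed) it was 13.6 and 4.43 in MST1-deficient against 19.4 and 26.2 in wild-type libraries. Both of these sums were lower in MST1-deficient libraries without overlap, a pattern of 18.8% of single gene sums. All 4 tested genes of the first list were lower without overlap. The most abundant, Gata2, had 64.4 and 63.04 FPKM in MST1-deficient against 74.22 and 78.88 FPKM in wild-type libraries. Of the erythroid markers, Sptb had 7.89 and 2.91 against 13.82 and 15.76 FPKM in the same order. Ank1 overlapped between the groups, and Hbb-bs was at 0.27 FPKM in wild-type replicate 1 and 0 elsewhere. Of 12 dendritic cell markers 2 were listed, with Siglech, Irf7 and Cd74 unlisted, and they ran in opposite directions. Tcf4 had 6.55 and 4.75 FPKM in MST1-deficient against 3.87 and 3.43 FPKM in wild-type libraries, and Itgax had 2.77 and 2.87 FPKM in MST1-deficient against 7.62 and 3.96 FPKM in wild-type libraries. Of 11 T and NK cell markers 3 were listed, with Cd3e and Nkg7 unlisted, and their sum was 13.7 and 7.63 FPKM in MST1-deficient against 16.9 and 5.71 FPKM in wild-type libraries. Among them the NK cell receptor gene Ncr1, named after its values were seen, was higher without overlap, beside 14.1% of all gene sums. Ncr1 had 9.86 and 7.63 FPKM in MST1-deficient against 5.41 and 4.93 FPKM in wild-type libraries. Klrb1c, the other tested gene of the list, overlapped between the groups and had a log2 fold change of -1.83. Its values were 3.56 and 0 FPKM in MST1-deficient against 11.5 and 0.78 FPKM in wild-type libraries. Sums of neutrophil, monocyte, B lineage and stem cell markers overlapped between the groups. The Y-linked gene Ddx3y had 10.18 and 5.6 FPKM in MST1-deficient against 1.91 and 0 FPKM in wild-type libraries. Other Y-linked genes ran the same way. Uty had 3.01 and 1.38 FPKM in MST1-deficient against 0.32 and 0 FPKM in wild-type libraries. In the same order Kdm5d had 2.59 and 3.19 against 0.02 and 0 FPKM. Eif2s3y had 7.57 and 4.64 against 1.35 and 0 FPKM. Y-linked values thus ran along genotype, and the labels give no sex. The part of cell makeup or sex of the pools in the values of the 4 genes was not tested.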

How the data were processed

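RNA selected on oligo-dT beads and amplified by PCR was sequenced from 2 MST1-deficient and 2 wild-type pools, per the labels' protocols. The authors deposited, per the file headers, expected counts (estimated counts, not normalised) and FPKM per unannotated transcript. Per the submitters' processing notes the genome build was mm10. Aligner, assembler, estimator and annotation are not given in the sources used here. Transcripts absent from a library's list were given 0 there. Gene numbers were named through RefSeq (GRCm38.p6), and 5051 of 5059 matched.

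Counts were rounded and tested in R 4.3.3 with edgeR 4.0.16 (TMM factors, 2-sided quasi-likelihood F-test) over features with FPKM of at least 1 in at least 2 libraries, with Benjamini-Hochberg adjustment and a threshold of 0.05. Gene values are sums over listed transcripts. SEs follow from the fold change and its F statistic. Alternatives were DESeq2 1.42.0, limma 3.58.1 on log2(FPKM + 0.5), other pseudocounts (0.1 and 1), size factors, filters, a replicate block and each library left out. The edgeR fit was also run on simulated counts with known fold changes. Library totals were implied from count, FPKM and length. Intervals are exact Poisson limits and, like the floor of 3 counts, cover counting error only, since reads carry no molecular identifiers.

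The members, the gene lists and the tests were chosen with earlier results of these data known. Besides the members, genes were named if past the threshold, if among the 3 tested genes of a list with the highest mean FPKM, or if nearest in profile to a member. A few others, such as Trim30b, Trim5 and Mx2, were named after their values were seen. Adar and Trim21 stand in more than 1 list. A few genes chosen in this way were left out of the text.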

Additional observations from a re-analysis of the deposited data

How the results depend on the processing

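The log2 fold changes of Oasl2, Trim30a and Zbp1 kept their positive sign in all 13 alternatives. These genes were picked on this contrast, and both their MST1-deficient values lay above both wild-type values. A change of sign was therefore hardly possible, and nothing is read from its absence. Leaving out 1 library each, the gene sums ranged from 1.45 to 1.85 for Oasl2, 0.36 to 0.57 for Trim30a and 0.64 to 1.17 for Zbp1. Xaf1 ranged from -12.6 without MST1-deficient replicate 2 to 0.13 without MST1-deficient replicate 1 (-11.5 to 0.13 for the form of 2065 bases, -11.6 to 0.11 for the form of 2350 bases). The value of -12.6 is a fit against a single library at 0 and is no measured fold. In the fit with a replicate block the values were 1.65, 0.46, 0.90 and -2.96 for Oasl2, Trim30a, Zbp1 and Xaf1. The numbers mark no stated batch (same-numbered deviations correlated at 0.127 over gene sums, with 2 pairs). Calls under that block stayed at 0 transcripts, 0 gene sums and 0 interferon genes.

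Counts of calls depended on the tool. Transcripts called were 0 with edgeR, 103 with DESeq2, 5 and 6 with limma at pseudocounts of 0.5 and 1, and 2 with edgeR among transcripts above 0 in all 4 libraries. Gene sums called were 0 with edgeR, 46 with DESeq2, 5, 9 and 5 with limma at pseudocounts of 0.5, 0.1 and 1, and 1 among genes above 0 in all 4 libraries. Of the interferon lists DESeq2 called 1 gene. The cause of these differences was not tested. Xaf1 has no value among genes above 0 in all 4 libraries. Zbp1 rests on 30.3 to 63.46 estimated counts per library and Oasl2 on 30.3 to 112.57.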

Other observations

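Abundant genes at 0 in 1 library were few beyond Xaf1. With at least 200 counts in each of the other libraries, Etnk1, an ethanolamine kinase gene, was also at 0 in MST1-deficient replicate 1. Inppl1, which encodes a lipid phosphatase, was at 0 in MST1-deficient replicate 2. Aff1, a partner gene of leukaemia fusions, and Gvin1, a gene of a very large interferon-inducible GTPase, were at 0 in wild-type replicate 2. There was 0 such gene for wild-type replicate 1. All of these names were chosen after their values were seen.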
